A study of Mus musculus with 9 samples.

Results

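The genes described here encode the enzyme complexes of oxidative phosphorylation. They were chosen by name: every gene of the array whose symbol begins with Nduf, Uqcr, Atp5, Cox4, Cox5, Cox6, Cox7 or Cox8, together with Sdha, Sdhb, Sdhc, Sdhd and Cycs, and without Ndufab1. This gave 90 of 18193 genes, measured by 178 probe sets, and each gene was read from its brightest probe set unless stated. By complex they comprised 33 subunits and 8 assembly factors of complex I, 4 subunits of complex II, 8 of complex III, 10 general subunits and 9 tissue isoforms or related genes of complex IV, 17 genes of complex V, and cytochrome c. Names are those of the annotation used for the array, in which the ATP synthase genes keep their older symbols (Atp5a1, Atp5g2 and so on), and probe sets with several gene symbols were not assigned to a gene.

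Liver RNA of female C57BL/6J mice was hybridised to 9 Affymetrix mouse expression arrays, with 3 arrays for each of control, amoxicillin and tylosin. Mice of the control group received no antibiotic. The pulsed antibiotic treatment (PAT) groups had amoxicillin, a beta-lactam, or tylosin, a macrolide, in the drinking water. Amoxicillin was at 0.167 mg per ml, set to deliver 25 mg per kg of body mass per day. Tylosin was at 0.333 mg per ml, set to deliver 50 mg per kg per day. The 3 courses ran from day 10 to day 15, from day 28 to day 31 and from day 37 to day 40 after birth. The first fell before weaning, and by the paper's account the earliest dose reached the pups in their mother's milk. All groups were later fed a high-fat chow, and livers were taken at an age that the sample labels give as 24 weeks and the series design as 22 weeks. The comparison asked whether the early-life courses left a difference in liver expression long after they ended. Mice of a litter shared a treatment and a cage, and the labels do not tie arrays to litters, so the p-values below measure only the spread between these 9 samples.

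Oxidative phosphorylation is the final stage of fuel oxidation in mitochondria. Complexes I and II pass electrons from NADH and succinate to ubiquinone, complex III passes them to cytochrome c, complex IV passes them to oxygen, and complex V, the ATP synthase, uses the proton gradient built up by complexes I, III and IV. Most subunits are encoded in the nucleus and the rest by mitochondrial DNA, and the liver, an organ with many mitochondria, expresses most of them strongly, whereas several complex IV subunits have isoforms typical of muscle, brown fat, lung or testis.

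To show what lies upstream of some of these genes, promoter sequences were taken from RefSeq on GRCm38.p6, which held an entry for 74 of the 90 genes. Windows of 300 bases, from 250 before to 50 after the start of transcription, were searched on both strands for exact matches to 3 motifs of factors known to act on such genes: the palindrome of NRF1, which stands in capitals in the line of Atp5g2, the GABP and ETS motif CCGGAAG, and the YY1 motif, the first of the stretches in capitals in the line of Atp5j. At least 1 of the 3 was found in 35.1% of the 74 genes and in 18.2% of 13268 protein-coding genes of the array; the NRF1 motif was found in 8.11% against 1.85%, the GABP motif in 25.7% against 15.5%, and the YY1 motif in 6.76% against 1.73%. The median GC content of the windows was 59% and 58.7%. The 100 bases before the start are printed 5' to 3' on the gene's strand, with matches to the motifs on either strand in capitals, for 3 ATP synthase genes that hold them, the general subunit Cox6b1 and its isoform Cox6b2, and the isoform Cox7a1. They come from chr15:102671048-102671147 (Atp5g2), chr5:108434400-108434499 (Atp5k), chr16:84834977-84835076 (Atp5j), chr7:30626115-30626214 (Cox6b1) and chr7:4753095-4753194 (Cox6b2), all on the minus strand, and from chr7:30184071-30184170 (Cox7a1) on the plus strand.
Atp5g2: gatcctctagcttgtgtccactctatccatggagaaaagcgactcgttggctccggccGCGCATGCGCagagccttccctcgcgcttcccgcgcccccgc
Atp5k: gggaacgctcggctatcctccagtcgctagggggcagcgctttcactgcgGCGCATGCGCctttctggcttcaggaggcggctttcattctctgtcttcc
Atp5j: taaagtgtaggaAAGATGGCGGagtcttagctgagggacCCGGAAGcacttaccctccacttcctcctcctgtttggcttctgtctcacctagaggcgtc
Cox6b1: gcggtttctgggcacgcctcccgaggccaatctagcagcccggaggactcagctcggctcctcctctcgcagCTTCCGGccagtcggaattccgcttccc
Cox6b2: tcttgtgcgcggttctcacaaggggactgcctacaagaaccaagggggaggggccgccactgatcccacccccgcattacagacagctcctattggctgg
Cox7a1: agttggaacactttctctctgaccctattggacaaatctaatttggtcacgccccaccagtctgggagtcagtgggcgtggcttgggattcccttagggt
Atp5g2 and Atp5k hold the NRF1 motif, Atp5j holds both the YY1 and the GABP motif, Cox6b1 holds the GABP motif on the opposite strand, and these letters do not occur in the stretches of Cox6b2 and Cox7a1.

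Before the results, the libraries were compared with their labels. The 7 measured hepatocyte markers averaged between 13.65 and 13.83 on the log2 scale in every array. The arrays of amoxicillin replicate 1 and tylosin replicate 2 stood apart: 7 markers of intestinal mucosa averaged 7.36 and 7.02 there against 5.50 in tylosin replicate 1 and 4.58 to 4.83 in the other 6 arrays, 4 cholangiocyte markers averaged 5.22 and 4.84 against 4.05 to 4.27 in the other 7, and 5 smooth muscle markers averaged 6.38 and 6.74 against 4.51 to 4.92. Results that could rest on them are also given without both of those arrays, and beyond that the part of these markers in the results was not tested.

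The transcripts of oxidative phosphorylation differed little between PAT and control livers. A gene was called where limma gave an unadjusted P under 0.01 and a log2 fold change over 0.5 either way, the rule of the study's methods. With amoxicillin 0 of 90 genes were called higher and 1 lower, where 0.835% and 0.445% of all 18193 genes were called, and with tylosin 2 were called higher and 1 lower, where 1.01% and 0.44% of all genes were called. No gene passed an adjusted p of 0.05 in limma in these comparisons, among the 90 genes or among all genes (0%). Without amoxicillin replicate 1 and tylosin replicate 2 the calls were 1 with amoxicillin, Cox6b2, and 2 with tylosin, Cox7c and Cox7a1. In bulk tissue, fewer cells of a type and less RNA per cell cannot be told apart.

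All 3 called genes lay at the dim end of the array. The mean over the 9 arrays was over a log2 value of 6 for 79 of the 90 genes (87.8%) and for 41.4% of all genes, and the calls Cox6b2, Cox7a1 and Cox7c were among the other 11. Of the 79 brighter genes 0 were called in either comparison, where amoxicillin gave calls for 1.32% (higher) and 0.279% (lower) of the 7524 genes of the array over that value, and tylosin for 1.69% and 0.306%. At an unadjusted P under 0.05 with no fold limit, 4 of the 90 genes were higher and 4 lower with amoxicillin (7.14% and 8.34% of all genes), and 8 were higher and 4 lower with tylosin (8.29% and 8.3% of all genes). The groups did not overlap for 9 genes higher and 8 lower with amoxicillin (9.52% and 11.4% of all genes) and for 7 higher and 7 lower with tylosin (8.21% and 9.15% of all genes). As shares of the 90 genes these counts came to 4.44% and 4.44%, 8.89% and 4.44%, 10% and 8.89%, and 7.78% and 7.78% in the same order, near or below those of the whole array. Of the 79 brighter genes, 3 were higher and 2 lower at that P with amoxicillin, and 6 and 2 with tylosin. Of the 7524 brighter genes of the array, 947 and 248 were so with amoxicillin, and 1096 and 270 with tylosin. The groups did not overlap for 8 higher and 6 lower of the 79 with amoxicillin, and for 5 and 5 with tylosin. For the 7524 genes these counts were 1303 and 481, and 1083 and 342. Among all 90, the genes with a P under 0.05 were Uqcrc2, Ndufb6, Ndufaf8 and Cox7c (higher) and Cox6b2, Cox6a2, Atp5g2 and Ndufv3 (lower) with amoxicillin. With tylosin they were Ndufa2, Ndufb6, Ndufb7, Ndufb8, Ndufaf8, Cox8a, Cox7c and Cox7a1 (higher) and Cox6b2, Cox6a2, Cox8c and Atp5h (lower).

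**Figure D1:**
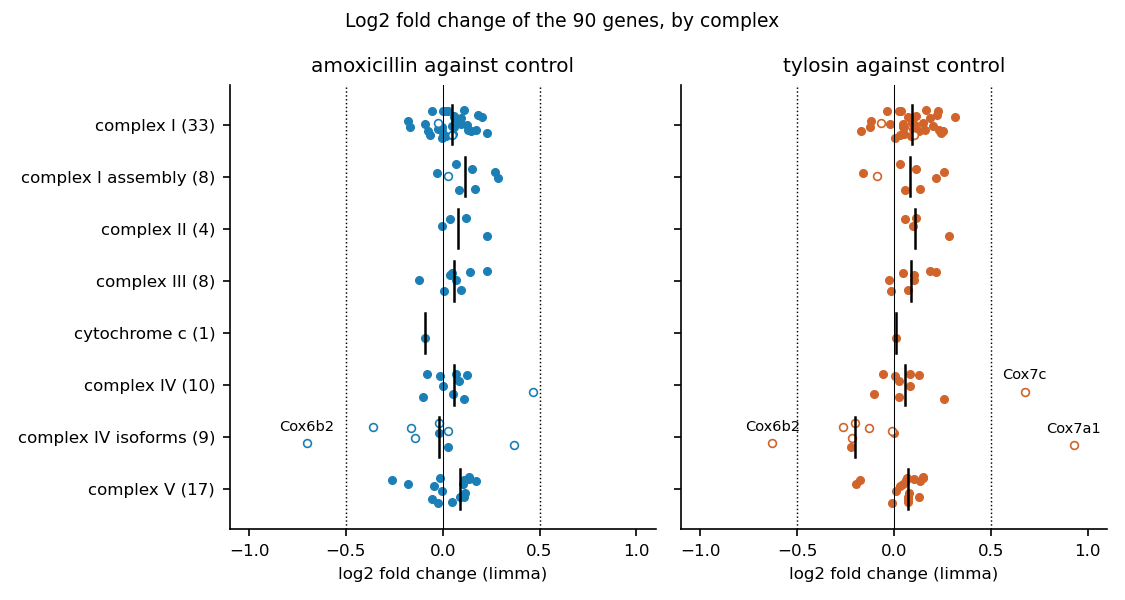
The log2 fold change of each of the 90 genes against control (x axis), by complex (y axis, number of genes in brackets), for amoxicillin (left) and tylosin (right). Each point is a gene, open where its mean log2 value is not over 6, the thick vertical bar is the median of the complex and dotted lines mark -0.5 and 0.5; the called genes Cox6b2, Cox7a1 and Cox7c are named, and apart from them every point lies between the dotted lines.

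The precision of the arrays was enough to bound most of the differences. The 95% confidence interval of the log2 fold change lay wholly between -0.5 and 0.5 for 82 of 90 genes with amoxicillin, where 70.3% of all genes did so, and for 82 of 90 with tylosin, where 69.9% did so. The 8 genes whose interval reached further with amoxicillin were Ndufb8, Ndufaf6, Ndufaf8, Sdhc, Cox7c, Cox6a2, Cox6b2 and Cox7a1. With tylosin they were Ndufb8, Ndufaf6, Ndufaf8, Sdhc, Cox7c, Cox6b2, Cox7a1 and Cox8b. The spread between replicates was smallest for Atp5d (pooled within-group SD 0.032), a subunit of the central stalk of the ATP synthase, followed by Ndufa1, Atp5pb, Cox4i1 and Ndufv3, and largest for Cox7a1 (SD 0.40), followed by Cox8b, Ndufaf5, Ndufaf6 and Cox6b2.

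**Figure D2:**
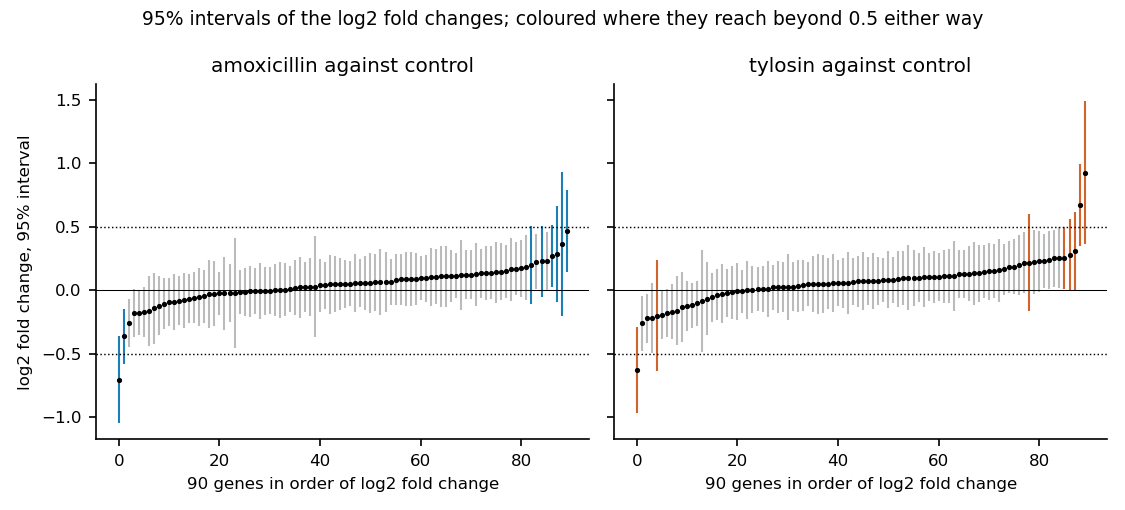
The log2 fold change against control (y axis, black points) with its 95% confidence interval from limma (vertical lines) for the 90 genes in order of fold change (x axis), with amoxicillin (left) and tylosin (right). Lines in colour reach beyond -0.5 or 0.5 (dotted), which 8 genes do in each panel.

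Most members had a fold change just above 0, as did most brightly measured genes. The log2 fold change was above 0 for 59 of 90 genes with amoxicillin (44.6% of all genes) and 68 of 90 with tylosin (46.7% of all genes), with medians of 0.05 and 0.07 against -0.03 and -0.01 over all genes. Among genes with a mean over 6 the medians were alike: 0.06 for 79 members and 0.06 for all 7524 genes with amoxicillin, and 0.07 for both with tylosin. What differed was the width: with tylosin the middle of the members, from the lower to the upper quartile, ran from 0.03 to 0.13, against -0.05 to 0.21 for the 7524 genes. With amoxicillin it ran from -0.01 to 0.12, against -0.05 to 0.19. Of the 79 members 54 and 65 had a fold change above 0 with amoxicillin and tylosin, where 64.3% and 66.1% of the 7524 genes did. Without amoxicillin replicate 1 and tylosin replicate 2 the medians of the 90 genes were 0.02 and 0.06.

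The complexes had a shared order over the arrays. In most of them the single control arrays spanned more than the distance of either PAT mean from the control mean. A span of single arrays and a distance between means are unlike measures, so this does not show whether the groups differ. For each array, the level of a complex was taken as the mean log2 value of its general subunits minus their mean over the controls. In complex I this was 0.07, -0.01 and -0.06 in the control arrays, 0.09, -0.04 and 0.07 in the amoxicillin arrays and 0.14, 0.09 and 0.03 in the tylosin arrays. The controls thus spanned 0.12, while the amoxicillin and tylosin means lay 0.04 and 0.09 above the control mean, and amoxicillin replicate 2 lay below 2 of the controls. The span of the controls also exceeded the distance of either PAT mean from the control mean in complexes II, III and V; in complex IV it was 0.10, against 0.07 with amoxicillin and 0.11 with tylosin. The order within a group was shared: of complexes I to V, control replicate 1 was the highest control in 5 of 5 and control replicate 3 the lowest in 5 of 5, amoxicillin replicate 2 was the lowest of its group in 5 of 5, and tylosin replicate 3 the lowest of its group in 5 of 5. These lowest PAT arrays also had the smallest 3' minus 5' difference of the Actb control probe sets in their groups, a measure of RNA integrity, at 1.39 and 1.21 against 1.49 to 1.73 in the other 4 PAT arrays, whereas among the controls the highest array had the smallest, 1.29 against 1.39 and 1.40. The part of RNA quality in this order was not tested. Counted by gene, 65, 33 and 11 of 73 general subunits and cytochrome c lay above their control mean in the 3 control arrays, 57, 30 and 54 in the amoxicillin arrays, and 57, 56 and 49 in the tylosin arrays. All genes with a mean over 6 stood at 0.02, 0.01 and -0.02 in the controls, 0.10, 0.04 and 0.08 with amoxicillin, and 0.13, 0.07 and 0.05 with tylosin on the same scale, a narrower range among the controls (0.037) than that of complex I.

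**Figure D3:**
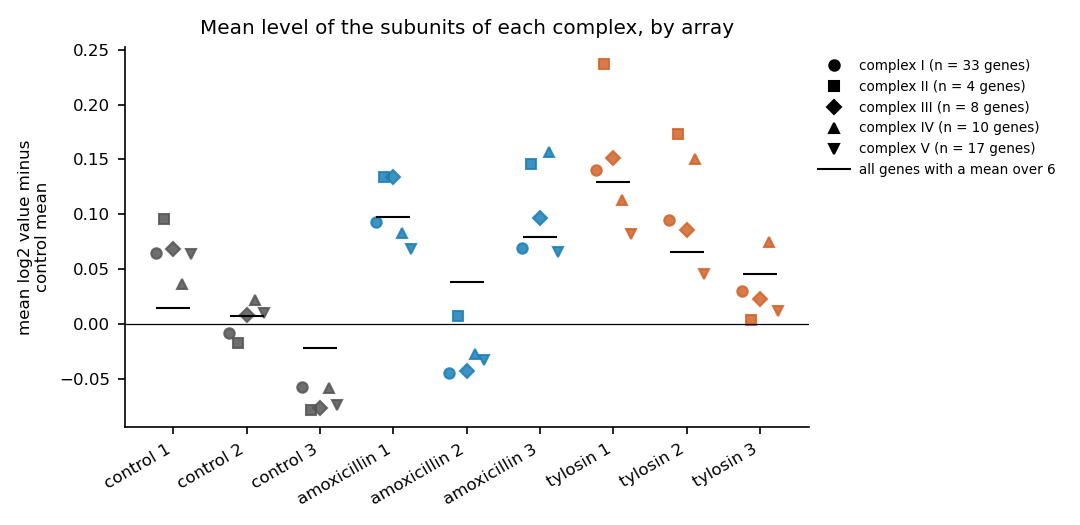
Mean log2 value of the subunits of complexes I to V minus its control mean (y axis) in each of the 9 arrays (x axis), 1 symbol per complex, with a bar for all genes whose mean log2 value is over 6. The symbols of an array sit near each other, and control 1 and control 3 lie further apart in each complex than the amoxicillin mean lies above the control mean.

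Complex I, the NADH dehydrogenase and the largest of the complexes, had 33 measured subunits, of which 0 were called with either antibiotic. Its median log2 fold change was 0.05 with amoxicillin, with 22 of 33 above 0, and 0.09 with tylosin, with 27 of 33 above 0. The 6 core subunits, which carry the catalytic centres, had medians of 0.02 and 0.07, and the 27 accessory subunits 0.06 and 0.10. Ndufb6, an accessory subunit of the membrane arm, had log2 values of 10.70, 10.71 and 10.47 in controls, 10.92, 10.78 and 10.86 with amoxicillin and 10.94, 10.94 and 10.73 with tylosin. Every PAT array lay above the controls, and the log2 fold changes were 0.23 (SE 0.10) and 0.24 (SE 0.10), with adjusted p-values of 0.34 and 0.31 in limma. The other probe set of Ndufb6 gave 0.06 and -0.06.

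Ndufb8, another membrane-arm subunit, read 11.22, 11.10 and 10.94 in controls, 11.29, 11.10 and 11.47 with amoxicillin and 11.52, 11.54 and 11.13 with tylosin. Its groups overlapped, since tylosin replicate 3 lay within the controls, and the log2 fold change with tylosin was 0.31 (95% interval 0.01 to 0.62). Ndufv3, a subunit of the NADH-oxidising module, went the other way with 11.66, 11.70 and 11.60 in controls, 11.44, 11.45 and 11.53 with amoxicillin and 11.50, 11.54 and 11.56 with tylosin. All 6 PAT arrays lay below the controls, by 0.18 and 0.12 on average, with limma P values that were not under 0.01. Ndufa2 and Ndufb7 also had an unadjusted P under 0.05 with tylosin, with log2 fold changes of 0.23 and 0.25. Ndufa4l2, a paralogue of the complex IV subunit Ndufa4 that is best known as a hypoxia-induced gene, was dim, at 5.26, 5.10 and 5.43 in controls, 5.12, 5.13 and 5.11 with amoxicillin and 4.80, 5.11 and 5.24 with tylosin, with overlapping groups, while Ndufa4 itself stayed between 12.10 and 12.31 in all arrays.

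The 8 Ndufaf genes encode factors that assemble complex I and are not part of the finished enzyme. None was called, and their medians were 0.12 with amoxicillin (7 of 8 above 0) and 0.08 with tylosin (6 of 8 above 0). Ndufaf8 read 9.24, 9.06 and 8.95 in controls, 9.38, 9.25 and 9.43 with amoxicillin and 9.52, 9.28 and 9.23 with tylosin. The amoxicillin arrays lay above every control and tylosin replicate 3 lay just under the highest of them, with log2 fold changes of 0.27 and 0.26 (SE 0.11). The other probe set of Ndufaf8 gave 0.03 with amoxicillin, with overlapping groups, and 0.14 with tylosin, with every tylosin array above the controls. Ndufaf6 turned on single arrays: it read 7.52, 7.71 and 7.54 in controls, 8.26, 7.71 and 7.65 with amoxicillin and 7.96, 7.95 and 7.52 with tylosin, and its fold change with amoxicillin went from 0.28 to 0.09 without replicate 1. Ndufaf2, which has a role late in assembly, and Ndufaf5 had fold changes of -0.03 and 0.03 with amoxicillin and -0.16 and -0.09 with tylosin.

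Complex II, the succinate dehydrogenase, belongs both to the respiratory chain and to the citric acid cycle. Sdha, its flavoprotein, read 11.40, 11.34 and 11.32 in controls, 11.52, 11.38 and 11.51 with amoxicillin and 11.67, 11.56 and 11.16 with tylosin. At this probe set tylosin replicates 1 and 2 were the highest arrays and replicate 3 was the lowest of all 9. The second brightest probe set of Sdha read 11.40, 11.44 and 11.34 with tylosin against 11.24, 11.32 and 11.31 in controls. Every tylosin array lay above the controls there, and its fold changes were 0.03 with amoxicillin and 0.11 with tylosin. Sdhb, the iron-sulphur subunit, lay between 11.48 and 11.78 in all arrays, and Sdhd, a membrane anchor, between 10.81 and 10.99. Sdhc, the other anchor, had the largest difference of the complex at the brightest probe sets, with 9.49, 9.33 and 9.27 in controls, 9.57, 9.50 and 9.70 with amoxicillin and 9.83, 9.73 and 9.37 with tylosin. The amoxicillin arrays lay above the controls and tylosin replicate 3 lay among them, with log2 fold changes of 0.23 (95% interval -0.05 to 0.51) and 0.28 (-0.001 to 0.564). The second probe set of Sdhc gave -0.002 and 0.15, and that of Sdhd gave 0.36 and 0.28, where the brightest gave 0.04 and 0.06. The 4 genes had medians of 0.08 and 0.11, and 0 were called.

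Complex III, the cytochrome bc1 complex, had 8 measured genes, 0 called, and medians of 0.06 with amoxicillin (7 of 8 above 0) and 0.09 with tylosin (6 of 8 above 0). Uqcrc2, a core protein of its matrix side, read 10.83, 10.96 and 10.79 in controls, 11.05, 11.03 and 11.16 with amoxicillin and 11.21, 10.97 and 10.95 with tylosin. Its amoxicillin arrays lay above the controls, by 0.23 (SE 0.10, adjusted p 0.32 in limma), and its second probe set gave 0.04. Uqcrfs1, the Rieske iron-sulphur protein that carries the catalytic step, had fold changes of 0.04 and 0.11. Cytochrome c (Cycs), which carries electrons from complex III to complex IV and also acts in apoptosis, read 11.78, 11.95 and 11.73 in controls, 11.63, 11.86 and 11.70 with amoxicillin and 11.76, 11.81 and 11.93 with tylosin, with overlapping groups and fold changes of -0.09 and 0.01 at its brightest probe set. Its other 2 probe sets over 6 gave 0.10 and 0.08 with amoxicillin and 0.18 and 0.19 with tylosin, and at both of them every tylosin array lay above the controls.

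Complex IV, cytochrome c oxidase, held all the calls made at a gene's brightest probe set, and they fell on dim ones. Its 10 general subunits had medians of 0.06 with either antibiotic, against -0.02 and -0.20 for the 9 tissue isoforms and related genes. Cox4i1, the main form of subunit 4, read 12.52, 12.51 and 12.53 in controls, 12.54, 12.43 and 12.55 with amoxicillin and 12.50, 12.54 and 12.54 with tylosin. Cox5a lay between 11.96 and 12.23, with all tylosin arrays below the controls, by 0.10, at this probe set. Its other probe sets gave -0.02 and 0.19 with tylosin, with overlapping groups. Cox7a2 lay between 12.10 and 12.39, and Cox6b1 between 12.19 and 12.42 in all 9 arrays. Cox6a1, the non-muscle form of subunit 6a, read 13.54, 13.57 and 13.53 in controls, 13.72, 13.57 and 13.71 with amoxicillin and 13.64, 13.77 and 13.61 with tylosin. Every PAT array lay above the controls, amoxicillin replicate 2 by less than the second decimal shows, and the fold changes were 0.12 and 0.13. Cox8a, the common form of subunit 8, had fold changes of 0.11 (95% interval -0.13 to 0.35) and 0.26 (0.01 to 0.50). The other probe set of Cox8a over 6 gave -0.01 and 0.05, with overlapping groups.

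Cox6b2, the testis form of subunit 6b, was called lower with both antibiotics. It read 4.86, 4.56 and 4.95 in controls, 3.98, 4.02 and 4.27 with amoxicillin and 4.23, 3.86 and 4.40 with tylosin. All 6 PAT arrays lay below all 3 controls. The log2 fold changes were -0.70 (SE 0.15, adjusted p 0.20 in limma) and -0.63 (SE 0.15, adjusted p 0.19), both against the same controls. The amoxicillin call held without each array in turn and without amoxicillin replicate 1 and tylosin replicate 2 (-0.65), whereas the tylosin call was lost without control replicate 3 (-0.55) or tylosin replicate 2 (-0.48). Cox6a2, the heart and skeletal muscle form of subunit 6a, had the same pattern with smaller differences, at 6.16, 6.34 and 6.08 in controls, 5.81, 5.95 and 5.73 with amoxicillin and 5.94, 5.90 and 5.95 with tylosin. Its PAT arrays also lay below every control, by 0.36 (SE 0.10) and 0.26 (SE 0.10), and it was not called. The 6 striated muscle markers averaged 3.31 to 3.72 by array, under the dim value of 6. With amoxicillin 0 of 6 had a fold change above 0 (median -0.22), and 2 were lower at an unadjusted P under 0.05 in limma (8.34% of all genes). With tylosin 1 of 6 had a fold change above 0 (median -0.20), and 3 were lower at that P (8.3% of all genes). The part of these markers in the result was not tested.

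Cox7a1, the muscle and brown fat form of subunit 7a, was called higher with tylosin. It read 4.12, 3.44 and 3.99 in controls, 4.68, 3.73 and 4.24 with amoxicillin and 5.15, 4.70 and 4.48 with tylosin. The tylosin arrays lay above every control and the amoxicillin arrays overlapped the controls. The log2 fold change was 0.93 (SE 0.26, adjusted p 0.20 in limma) with tylosin and 0.37 (SE 0.26, adjusted p 0.52) with amoxicillin. The call was lost without control replicate 2 (0.72), tylosin replicate 1 (0.74) or tylosin replicate 2 (0.97), and held without amoxicillin replicate 1 and tylosin replicate 2 together (0.97). Of markers of the tissues it is typical of, Ckm lay between 3.67 and 4.36, Acta1 between 3.10 and 4.10 and Ucp1 between 2.88 and 3.30 over the 9 arrays, and the means of 6 striated muscle markers ranged from 3.60 to 3.72 in controls and from 3.31 to 3.60 with tylosin. With tylosin the striated muscle list had a median of -0.20, with 3 of 6 lower at an unadjusted P under 0.05 in limma. The 3 brown fat markers had a median of -0.28, with 1 lower, where 8.3% of all genes were lower at that P. Both lists averaged under the dim value of 6 in every array. The part of such tissue in the result was not tested. Cox7a2l, a relative of this family that binds supercomplexes of complexes III and IV, lay between 9.69 and 9.96 with fold changes of -0.02 and 0.00.

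Cox7c is a general subunit, but of its 2 probe sets with a single gene symbol the brighter one was dim, so the value stands for that probe set. It read 4.46, 4.58 and 4.31 in controls, 4.77, 4.75 and 5.23 with amoxicillin and 5.18, 5.27 and 4.91 with tylosin. All 6 PAT arrays lay above the controls. The log2 fold change was 0.68 (SE 0.15, adjusted p 0.18 in limma) with tylosin, a call that held without each array in turn. With amoxicillin it was 0.47 (SE 0.15), short of the fold limit, and 0.54 or 0.55, past it, without amoxicillin replicate 1 or 2. The remaining isoforms, Cox4i2 of lung, Cox7b2 of testis and Cox8b of muscle and brown fat, stayed dim with overlapping groups; Cox8b ranged from 3.16 to 4.11 among the controls alone, a span that covered every PAT array. Cox8c, another form known from testis, read 6.94, 6.94 and 7.05 in controls, 6.94, 7.13 and 6.94 with amoxicillin and 6.77, 6.70 and 6.80 with tylosin. The tylosin arrays were the lowest of the 9, by 0.22 (SE 0.09, adjusted p 0.29 in limma) against control.

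**Figure D4:**
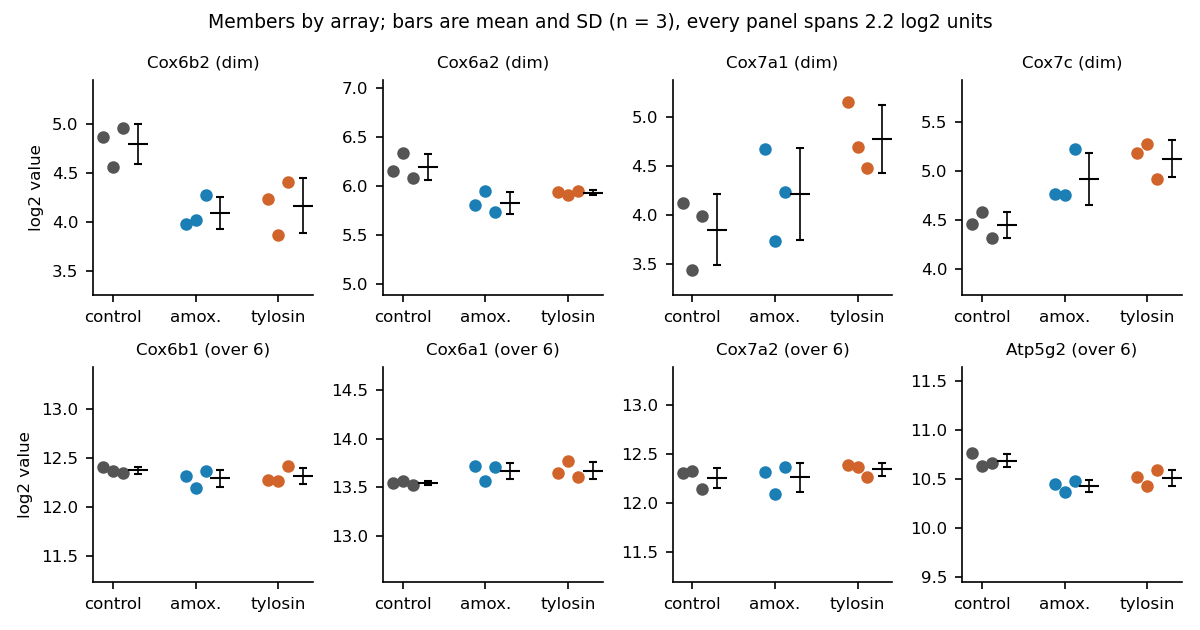
Log2 values by array (y axis, every panel spanning 2.2 log2 units) for 4 genes with a mean log2 value not over 6 (upper row) and 4 over it (lower row), in controls, amoxicillin (amox.) and tylosin (x axis); points are arrays and bars the mean and SD of 3. The PAT arrays of Cox6b2 and Cox6a2 lie below all controls and those of Cox7c above, while Cox6b1, Cox6a1 and Cox7a2 stay within a narrow band.

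Complex V, the ATP synthase, had 17 measured genes, 0 called, with medians of 0.09 with amoxicillin (10 of 17 above 0) and 0.07 with tylosin (14 of 17 above 0). The 5 genes of F1, which is the head where ATP is made together with the central stalk, had medians of -0.01 and 0.03. The 4 of the peripheral stalk had 0.02 and 0.08, and the 5 other membrane subunits 0.11 and 0.07, with 5 of 5 above 0 in both groups. Atp5b, the catalytic beta subunit, lay between 12.25 and 12.42 in all 9 arrays. The rotor ring is built from subunit c, for which 3 genes encode the same mature protein. Atp5g2, whose promoter is printed above, read 10.76, 10.64 and 10.66 in controls, 10.44, 10.36 and 10.47 with amoxicillin and 10.51, 10.42 and 10.59 with tylosin. All 6 PAT arrays lay below the controls, by 0.26 (SE 0.09, adjusted p 0.25 in limma) and 0.18 (SE 0.09, adjusted p 0.37). Atp5g1 and Atp5g3 had fold changes of 0.14 and 0.14 with amoxicillin and 0.15 and 0.15 with tylosin, with overlapping groups. The difference between these genes was not tested.

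Where a gene had several bright probe sets, they often differed in sign. Of 42 genes with at least 2 probe sets over 6 in all arrays, all their probe sets had the same sign in 27 with amoxicillin and 29 with tylosin, and the median gap between probe sets was 0.12 and 0.10, as large as the typical fold change. Atp5h, a stalk subunit, read 12.47, 12.42 and 12.37 in controls, 12.23, 12.24 and 12.25 with amoxicillin and 12.22, 12.12 and 12.33 with tylosin at its brightest probe set, with no overlap. Its other probe set gave 0.03 and 0.10 where this one gave -0.18 and -0.20. Cox6b1 likewise had -0.08 and -0.06 at the brightest and 0.14 and 0.20 at the other.

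A gap over 0.5 occurred in 1 gene, Atp5a1, the alpha subunit of the F1 head. Its brightest probe set gave log2 fold changes of -0.01 and 0.07 in the amoxicillin and tylosin arrays, and the next brightest 0.05 in both. The dimmest of its probe sets read 8.56, 8.52 and 8.47 in controls, 7.17, 8.06 and 7.39 with amoxicillin and 7.12, 6.84 and 8.25 with tylosin. Its PAT arrays lay below every control, by 0.98 (SE 0.32, adjusted p 0.25 in limma) and 1.11 (SE 0.32, adjusted p 0.21), the second of which passed the call rule, and the call was lost without any 1 of the 3 controls, tylosin replicate 1 or tylosin replicate 2. Amoxicillin replicate 1 and tylosin replicate 2, the arrays with raised intestinal and smooth muscle markers, were among the lowest here, and without both the fold change with tylosin was -0.83 and was not called. The Actb 3' minus 5' difference was 1.29, 1.39 and 1.40 in controls, 1.57, 1.39 and 1.57 with amoxicillin and 1.49, 1.73 and 1.21 with tylosin. The 4 PAT arrays lowest at this probe set had differences of 1.49 to 1.73, and the other 5 arrays 1.21 to 1.40. For the Gapdh control probe sets the same 4 arrays had 0.39 to 0.54 and the other 5 had 0.23 to 0.43. The part of RNA quality in the result was not tested.

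**Figure D5:**
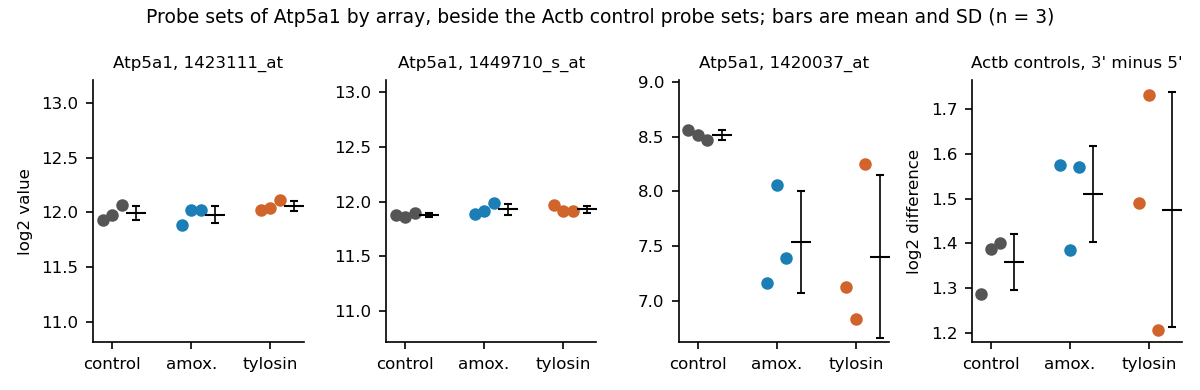
Log2 values of the 3 probe sets of Atp5a1 and the 3' minus 5' log2 difference of the Actb control probe sets (y axes) by group (x axis); points are arrays and bars the mean and SD of 3. The first 2 panels stay flat, in the next panel the PAT arrays range from 6.84 to 8.25, all below the controls, and the arrays that are lowest there are the highest in the last panel.

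Set against each other, the antibiotics gave nearly the same levels. With tylosin against amoxicillin 0 genes were called higher and 0 lower, where 0.0715% and 0.0385% of all genes were called, 0 were higher and 1 lower at an unadjusted P under 0.05 in limma (1.78% and 1.36% of all genes), the latter Cox8c at -0.25 (SE 0.09), and none passed an adjusted p of 0.05. The interval lay within -0.5 to 0.5 for 86 of 90 genes (84.4% of all genes), the others being Ndufaf5, Cox7c, Cox7a1 and Cox8b. The median was 0.02, with 59 of 90 above 0 (53.4% of all genes). The groups did not overlap for 0 genes higher and 2 lower (3.58% and 2.56% of all genes), Cox8c and Cox5a, the latter by 0.15. Other probe sets of Cox5a gave -0.08 and 0.03, and the other, dim probe set of Cox8c gave 0.09, all with overlapping groups. The largest positive differences after Cox7a1 (0.56, SE 0.26) were those of Cox7c (0.21), Ndufs1 (0.20), a core subunit of complex I, Ndufb3 (0.15) and Cox8a (0.14). By complex the medians were 0.05 for complex I, 0.04 for II, 0.02 for III and IV and 0.01 for V. At their brightest probe sets 8 of 8 Ndufaf assembly factors of complex I lay below 0 (median -0.04, from -0.13 in Ndufaf2 to -0.01). However, Ndufaf5 lay above 0 without amoxicillin replicate 1 (0.07), and the other probe set of Ndufaf8 gave 0.11. Of 10 further complex I assembly factors, described below, 4 lay above 0 (median -0.009).

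Other genes of the pathway, outside the naming rule, were read from lists, whose counts at an unadjusted P under 0.05 stand against 7.14% higher and 8.34% lower of all genes with amoxicillin and 8.29% and 8.3% with tylosin. Cyc1, the cytochrome c1 of complex III, had fold changes of -0.14 and -0.13. Of 31 measured assembly factors of complexes II to V 0 were called in limma, with 2 higher and 0 lower at an unadjusted P under 0.05 with amoxicillin and 3 and 0 with tylosin. Of 10 further factors of complex I 0 were called, with 1 and 1 at that P with amoxicillin and 0 and 0 with tylosin. Of 18 genes of the citric acid cycle 0 were called, with 0 and 0 at that P with amoxicillin and 2 and 1 with tylosin. ND5, the measured gene of the 13 that mitochondrial DNA encodes, lay between 13.57 and 13.90 in all arrays, with fold changes of -0.04 and -0.02. Of 22 genes of adenine nucleotide exchange and ubiquinone synthesis, 1 was higher and 0 lower at that P with amoxicillin and 2 and 0 with tylosin, and 1 was called, higher with tylosin: Slc25a4, the heart and muscle form of the carrier that trades ATP for ADP. It read 6.62, 6.48 and 6.14 in controls, 7.19, 6.80 and 6.56 with amoxicillin and 7.08, 7.01 and 7.12 with tylosin. The tylosin arrays lay above the controls by 0.66 (SE 0.16, adjusted p 0.19 in limma), and amoxicillin replicate 3 lay among the controls.

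Of 17 regulators of mitochondrial biogenesis 0 were called in limma. At an unadjusted P under 0.05 in limma, 3 were higher and 1 lower with amoxicillin (7.14% and 8.34% of all genes). With tylosin 5 were higher and 2 lower (8.29% and 8.3% of all genes). Of the 7524 genes with a mean over 6, 947 were higher and 248 lower at that P with amoxicillin, and 1096 and 270 with tylosin. With 17 genes the counts are small, and whether they differ from the shares of the array was not tested. The regulators best known for acting on these genes had fold changes of both signs. Ppargc1a, the coactivator that induces the respiratory chain in fasting and cold, read 7.88, 6.85 and 7.42 in controls, 8.36, 8.34 and 7.97 with amoxicillin and 8.95, 8.27 and 7.63 with tylosin. The amoxicillin arrays lay above the controls and tylosin replicate 3 lay among them, with log2 fold changes of 0.84 and 0.90 (SE 0.32, adjusted p 0.26 with tylosin in limma). Its relative Ppargc1b read 7.66, 6.81 and 7.08 in controls and 6.34 and 6.16 in tylosin replicates 1 and 2, while replicate 3 lay among the controls, with a fold change of -0.68 (SE 0.24, adjusted p 0.26 in limma). Nrf1 and Gabpa, whose motifs were searched above, had fold changes with tylosin of -0.33 and 0.24, Tfam, which packages and transcribes mitochondrial DNA, 0.18, and Esrra 0.09. The members with and without a motif had medians of 0.08 and 0.01 with amoxicillin and 0.09 and 0.05 with tylosin, for 26 and 48 genes.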

How the data were processed

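Liver RNA from 9 samples was measured on 1 Affymetrix array each. The authors normalised the arrays with RMA (affy package, versions not given in the sources used here) and deposited log2 expression values, from 2.00 to 14.71; no pair of arrays was identical. Of 45101 probe sets, 64 manufacturer controls were left out; 34958 of the rest carry 1 gene symbol, 932 several and 9211 were unnamed. A gene was represented by the probe set with the highest mean, and a log2 value of 6 was taken as dim. Groups came from sample titles. limma 3.58.1 in R 4.3.3 was fitted to all 9 arrays and all probe sets, with Benjamini-Hochberg adjustment and 95% confidence intervals; calls needed P under 0.01 before adjustment and a log2 fold change beyond 0.5 either way. The fit was checked on simulated data. The number of arrays limits the precision.

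The members and lists were chosen with earlier results of these data known. Named genes are the called members, the 5 largest rises and falls of each comparison, complex II, Cycs, the isoform families, the 5 steadiest and 5 most variable members, members with another probe set called, called pathway genes and chosen regulators; others named in the text were chosen after their values were seen. Alternatives covered the threshold, scaling, dim filter, probe set, variance model, replicate block and leaving out arrays. Promoters and motifs were read in Python 3.11.15.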

Additional observations from a re-analysis of the deposited data

How the results depend on the processing

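The median fold changes moved by less than the spread between replicates under every alternative that gives one, from 0.01 to 0.10 with amoxicillin, 0.04 to 0.12 with tylosin and -0.01 to 0.05 between the antibiotics. That spread, 0.06, is wider than the medians of 0.05 with amoxicillin and 0.02 between the antibiotics, and close to the 0.07 with tylosin. A fall to 0 with amoxicillin or between the antibiotics would also pass this limit, so it says little about their stability. The counts of called genes were small and did move. With amoxicillin, against 1, they were 0 at an adjusted p of 0.05, with the filter on dim probe sets, with the second brightest probe set, and without isoforms, supercomplex factor and assembly factors, 2 with arrays centred on their median, and 8 at an unadjusted P under 0.05 alone. With tylosin, against 3, they were 0 at an adjusted p of 0.05, with the dim filter and with the second brightest probe set, 1 without isoforms, supercomplex factor and assembly factors, and 12 at an unadjusted P under 0.05. Between the antibiotics, against 0, 1 gene was called at an unadjusted P under 0.05. Leaving out each array in turn gave 1 to 2, 1 to 3 and 0 to 0 calls. On the second brightest probe set, which 51 genes have, intervals lay within -0.5 to 0.5 for 44 with amoxicillin, 45 with tylosin and 51 between them. Single genes were refitted for 31 results of named genes, not for all members. Among these, signs reversed in 2 genes at the same probe set: leaving out each array, Cox8b with tylosin ran from -0.46 to 0.013 (without control replicate 2) and Ndufaf5 between the antibiotics from -0.26 to 0.075 (without amoxicillin replicate 1), and Ndufaf5 was 0.13 without that array and tylosin replicate 2. The cause was not tested, except that a stricter threshold or fewer genes lowers a count by construction. The replicate numbers did not pair the samples: residuals correlated above 0.1 in 2 of 9 same-number pairs, and an array's best match had its own number in 3 of 9 cases. With a replicate block, 1 gene was called between the antibiotics, Cox7a1 (0.56), and no other call changed. The calls at dim probe sets are limited by signal over background.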
